A study of Mus musculus with 18 samples.

Results

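The Schlafen family of the mouse was followed through B16F10 tumors treated with free or vesicle-loaded STING agonist. Its members were chosen by name as Slfn1, Slfn2, Slfn3, Slfn4, Slfn5, Slfn8 and Slfn9, which are 7 of the 50600 genes in the deposited table, and all 7 passed the filter on low counts. B16F10 is a transplantable melanoma line of C57BL/6 origin, and the cells were grown under the skin of the flank of C57BL/6 mice, so tumor, immune and stromal RNA are mixed in every value. Each group held 2 tumors, 18 in all, and RNA came from the whole tumor 24 h after its last intratumoral (IT) injection. After 1 dose the groups were PBS, unloaded extracellular vesicles (EVs), exoCDN2 (0.1 µg), free CDN2 (20 µg) and free CDN2 (100 µg). After 2 doses given 3 days apart they were PBS, exoCDN2, free CDN2 (20 µg) and a free CDN2 group whose amount the labels do not give. The 100 µg amount comes from the sample titles. The paper's account of the RNA sequencing names free CDN2 at 20 µg only, and states the 24 h for the groups it names. CDN2 is the cyclic dinucleotide CL656, an agonist of STING, the adaptor that turns on type I interferon when DNA is sensed in the cytosol. In exoCDN2 it is carried by EVs of HEK293 cells that overexpress the glycoprotein PTGFRN, and the unloaded EVs carry no compound. Where the amount of free CDN2 is given, it therefore differed from the loaded amount.

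Schlafen genes are a fast-evolving family of interferon-inducible genes found in mammals, and the mouse carries a cluster of them that grew by duplication. The short members Slfn1 and Slfn2 were described in lymphocytes, where Slfn1 slows growth and Slfn2 keeps T cells quiescent. Slfn3 and Slfn4 are of intermediate length, and Slfn4 is known from myeloid cells. Slfn5, Slfn8 and Slfn9 are the long members, which add a helicase-like domain. Interferon acts on its target genes through the interferon-stimulated response element (ISRE), a short motif in their promoters.

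The 7 members lie in 264 kb of chromosome 11, at chr11:82951349-83215154 of GRCm38 in the GENCODE M21 annotation. In the order of the chromosome they are Slfn5, Slfn9, Slfn8, Slfn2, Slfn1, Slfn4 and Slfn3, with Slfn8 and Slfn9 on the minus strand and the others on the plus strand. All are annotated as protein coding. The 160 bases before the RefSeq start (GRCm38.p6) are printed for Slfn8 and Slfn9, whose promoter windows hold an ISRE core, for Slfn1 and Slfn2, the members with the largest changes between 1 and 2 doses of CDN2 (20 µg), and for the neighbours Slfn4 and Slfn3, which parted from each other. The sequences run 5′ to 3′ on the strand of the gene. Capitals mark an ISRE core (GAAA, any 2 bases, then GAAA, or the reverse complement) in the minus-strand genes and an Ets-type core (CAGGAAGT or ACTTCCTG) in the plus-strand genes.
Slfn8, chr11:83020811-83020970, minus strand: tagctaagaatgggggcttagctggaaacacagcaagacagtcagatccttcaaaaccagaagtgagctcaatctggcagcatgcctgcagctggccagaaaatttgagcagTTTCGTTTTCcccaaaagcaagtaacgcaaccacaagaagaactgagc
Slfn9, chr11:82991831-82991990, minus strand: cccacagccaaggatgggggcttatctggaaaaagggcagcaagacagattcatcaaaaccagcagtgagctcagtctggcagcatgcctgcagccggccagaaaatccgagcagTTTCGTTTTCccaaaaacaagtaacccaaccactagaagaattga
Slfn1, chr11:83116660-83116819, plus strand: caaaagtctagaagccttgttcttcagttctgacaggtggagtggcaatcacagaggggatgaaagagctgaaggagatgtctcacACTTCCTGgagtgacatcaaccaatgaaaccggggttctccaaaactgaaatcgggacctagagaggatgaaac
Slfn2, chr11:83064952-83065111, plus strand: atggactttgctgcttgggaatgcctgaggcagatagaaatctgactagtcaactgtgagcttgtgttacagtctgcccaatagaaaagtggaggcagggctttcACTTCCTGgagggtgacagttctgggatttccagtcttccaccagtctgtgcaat
Slfn4, chr11:83175026-83175185, plus strand: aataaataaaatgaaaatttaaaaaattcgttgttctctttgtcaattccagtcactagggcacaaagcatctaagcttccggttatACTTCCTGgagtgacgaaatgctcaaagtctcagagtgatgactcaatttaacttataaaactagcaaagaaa
Slfn3, chr11:83191170-83191329, plus strand: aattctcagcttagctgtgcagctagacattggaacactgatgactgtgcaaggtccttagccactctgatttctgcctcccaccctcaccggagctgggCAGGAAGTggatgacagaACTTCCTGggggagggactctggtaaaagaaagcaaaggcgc

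Both strands of the RefSeq promoter windows, which run from 250 bases before to 50 bases after each start, were searched for 3 motifs. The ISRE core was found in Slfn8 and Slfn9, where the letters are TTTCGTTTTC in both, and in Slfn5, where they are GAAAAAGAAA. In Slfn5 the RefSeq start lies 753 bases from the start of the GENCODE gene. Of the 27025 promoter windows in the RefSeq table, 3.49% held the ISRE core. The Ets-type core, searched after the sequences had been seen, was found in Slfn1, Slfn2 and Slfn4 and with 2 matches in Slfn3, against 3.38% of all windows. No window of a member held the gamma-activated site TTCNNNGAA, which 8.47% of all windows hold. None of these matches overlapped another. The windows of Slfn8 and Slfn9 were alike in 80.5% of aligned columns, and those of the other pairs in 41.9% to 49.4%. A match is a string of letters here, and its use in these tumors was not tested.

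The libraries held 21608895 to 65983630 expected counts, and counts were compared by edgeR's quasi-likelihood test over 16927 genes in the 16 tumors of known amount. A gene was called changed at a Benjamini-Hochberg adjusted p under 0.05 and a ratio over 2. Normalized counts are rounded expected counts divided by DESeq2 size factors. Melanoma markers such as Dct and Pmel were above 0 in every group. The first of the 2 tumors given 2 doses of CDN2 (20 µg) stood apart in that its library was the smallest. Between it and its partner 4700 genes differed by more than 2-fold, against 846 to 2285 between the tumors of the other groups. That count does not say which tumor of the pair is the unusual one. The summed normalized counts of 8 neutrophil markers were 9585 to 43404 in that group and at most 3131 in the others. With 2 tumors a group, the smallest two-sided p of an exact permutation test of a single value is 0.333, so each test rests on the spread shared by the 16 tumors, and the p-values measure the spread between these tumors. In RNA of whole tumors, fewer cells of a type and less RNA per cell cannot be told apart.

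After 1 dose of PBS Slfn2 took the largest share of the family. On the scale of CPM (counts scaled by TMM library size) per kb of the longest coding transcript, Slfn2 stood at 10.4 ± 1.66 (SD, n = 2), Slfn9 at 7.34 ± 0.166, Slfn3 at 5.82 ± 0.0919, Slfn5 at 3.21 ± 0.291, Slfn8 at 1.89 ± 0.106, Slfn1 at 1.70 ± 0.223 and Slfn4 at 0.498 ± 0.0398. Slfn8 and Slfn1 were within their spread of each other in this order, and the other neighbours were not. The summed level of the family was 29.5 and 32.3 CPM per kb in these tumors. It was 186 and 168 after 1 dose of exoCDN2, 91.2 and 138 after CDN2 (20 µg) and 93.0 and 103 after CDN2 (100 µg). After 2 doses it was 21.2 and 10.3 in PBS tumors, 163 and 109 with exoCDN2 and 577 and 164 with CDN2 (20 µg). The family's summed level was thus higher in every tumor given a known amount of CDN2 than in any PBS tumor.

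**Figure D1:**
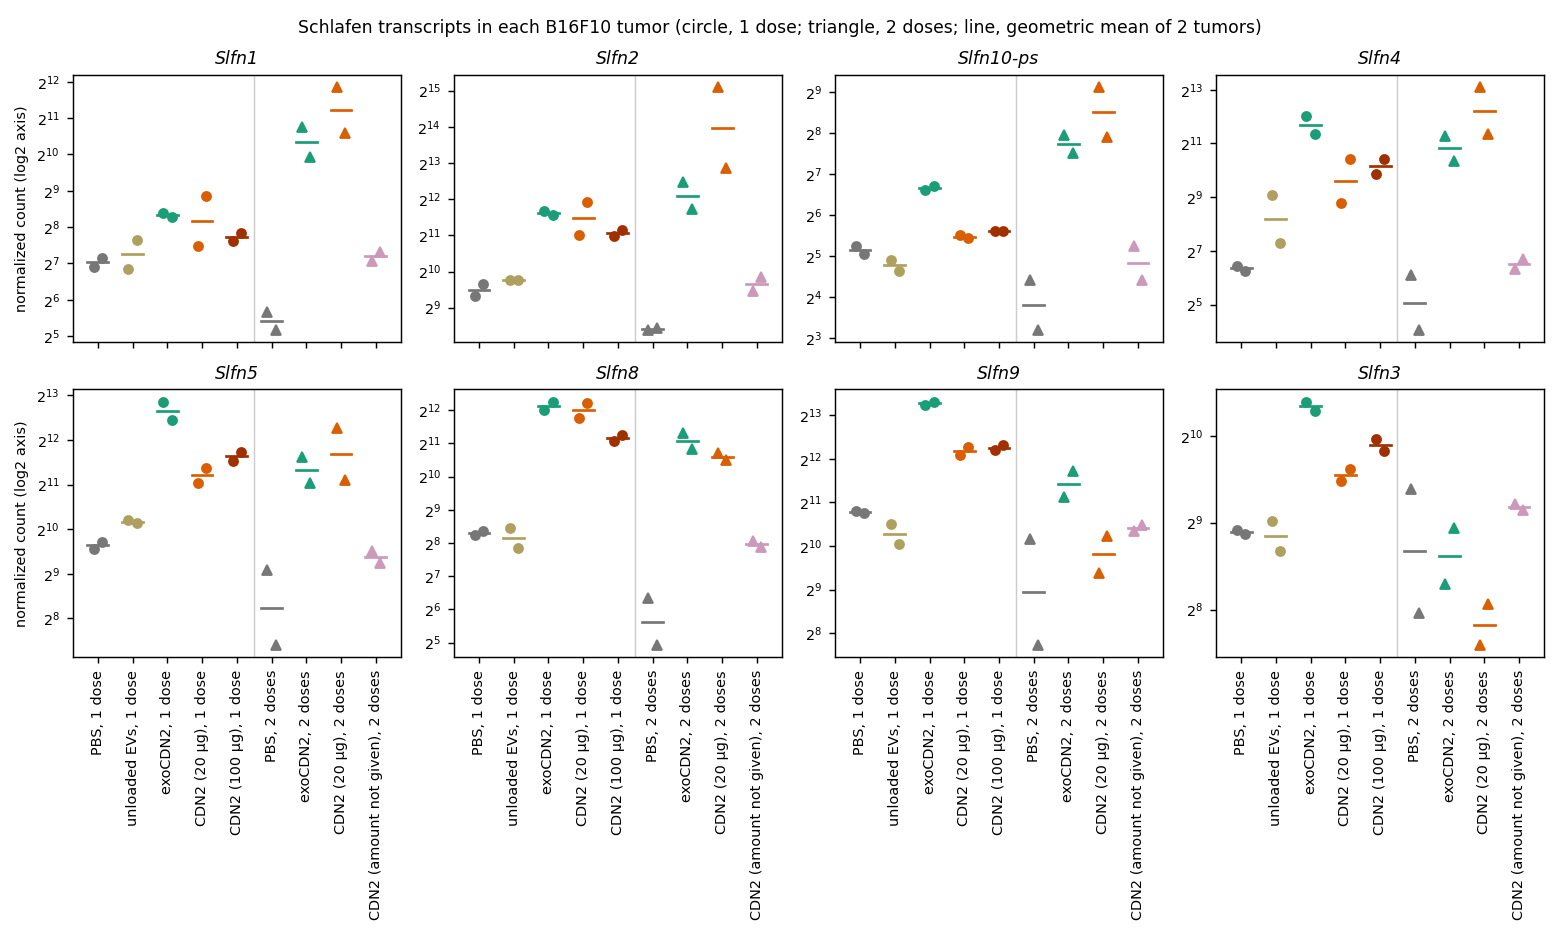
Normalized count of each Schlafen transcript (log2 axis) in each of the 18 tumors by group, with circles for 1 dose, triangles for 2 doses and a line at the geometric mean of the 2 tumors. The Slfn10-ps pseudogene is drawn beside the 7 members. The highest value is that of Slfn2 in the first CDN2 (20 µg) tumor after 2 doses, at 35332, while the second tumor of that group was at 7394.

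The vesicles alone were compared with PBS to ask what the carrier does. Unloaded EVs changed 0 of the 7 members, and 0% of all 16927 genes were called. Slfn4 had the largest difference, at 547 and 158 normalized counts with unloaded EVs against 86.9 and 77.0 with PBS. The groups did not overlap, as for 43.8% of all genes, and the log2 fold change of 2.10 (SE 0.80) had an adjusted p of 1 in edgeR and an unadjusted p of 0.0218. No other member had an unadjusted p under 0.05. Without the filter on low counts Slfn4 was called (adjusted p = 3.11e-15), but that fit gave Slfn4 a quasi-likelihood spread of 0.668 where its own tumors gave 10.6, since the spread was there taken from other genes of like abundance alone. With the filter the spread used was 7.6, and Slfn4's own was 11.1. The other log2 fold changes lay between -0.50 for Slfn9 and 0.52 for Slfn5, with 95% intervals that included 0. DESeq2 called 0 members.

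After 1 dose, Slfn8 rose with each agonist. The 3 agonist groups were compared with the same 2 PBS tumors. Free CDN2 (20 µg) changed 2 of 7 members, both higher, where 3.14% of all genes were called in either direction and 2.26% higher. Free CDN2 (100 µg) changed 3 of 7, all higher, against 2.44% of all genes (1.82% higher). ExoCDN2 (0.1 µg) changed 4 of 7, all higher, against 2.62% of all genes (2.2% higher). Every member was higher in every agonist-treated tumor than in both PBS tumors of 1 dose, whether or not it passed the test. Of all genes, 58.1% to 68.1% had groups that did not overlap in these comparisons, in either direction. Counting only genes higher in both treated tumors, there were 4962 to 5972 of 16927 per comparison.

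Slfn8, a long member, rose in all 3 groups. Its normalized counts were 305 and 327 with PBS, 3469 and 4791 with CDN2 (20 µg), 2168 and 2433 with CDN2 (100 µg) and 4112 and 4901 with exoCDN2. The lowest agonist-treated tumor lay far above the higher PBS tumor. The log2 fold change was 3.70 (SE 0.35, edgeR adjusted p = 0.000122) with CDN2 (20 µg), 2.85 (SE 0.34, adjusted p = 0.0009) with CDN2 (100 µg) and 3.80 (SE 0.36, adjusted p = 9.26e-05) with exoCDN2. Leaving out any 1 tumor, or any other alternative tried, ended none of these 3 calls.

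Slfn4, the myeloid member, had the largest log2 fold change in 2 of the 3 groups. It stood at 86.9 and 77.0 normalized counts with PBS, 444 and 1384 with CDN2 (20 µg), 931 and 1379 with CDN2 (100 µg) and 4181 and 2630 with exoCDN2. The tumors given CDN2 (20 µg) differed 3.12-fold from each other, while all 6 agonist-treated tumors lay above both PBS tumors. The log2 fold changes were 3.46 (SE 0.82, edgeR adjusted p = 0.035), 3.80 (SE 0.83, adjusted p = 0.0302) and 5.34 (SE 0.88, adjusted p = 0.00491) in that order. Each of these calls was lost when either PBS tumor was left out. The call for CDN2 (20 µg) was also lost without its second treated tumor, at a log2 fold change of 2.44. That for CDN2 (100 µg) was also lost without its first or its second treated tumor, at 4.05 and 3.49.

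Slfn5, a long member and a nuclear protein, stood at 751 and 846 normalized counts with PBS, 2106 and 2663 with CDN2 (20 µg), 2978 and 3418 with CDN2 (100 µg) and 7438 and 5633 with exoCDN2. It rose with CDN2 (100 µg) by 1.99 on the log2 scale (SE 0.46, edgeR adjusted p = 0.0388) and with exoCDN2 by 3.00 (SE 0.47, adjusted p = 0.00376), and with CDN2 (20 µg) its log2 fold change of 1.57 had an adjusted p of 0.0843. The call for CDN2 (100 µg) was lost without any 1 of the 4 tumors compared. Without either PBS tumor the call for exoCDN2 was lost, at adjusted p values of 0.0773 and 0.065. Slfn9, the other long member, stood at 1796 and 1724 with PBS and at 9683 and 10197 with exoCDN2, a rise of 2.46 (SE 0.56, edgeR adjusted p = 0.0319) that was also lost without any 1 of the 4 tumors. With the free agonist Slfn9 was at 4365 and 4921 (20 µg) and 4739 and 5094 (100 µg), with log2 fold changes of 1.39 and 1.47 that did not pass. Slfn5 and Slfn9, like Slfn3 and Slfn4, were higher in both exoCDN2 tumors than in all 4 tumors given free CDN2 for 1 dose. Between the exoCDN2 and CDN2 (20 µg) tumors alone, 60.8% of all genes had groups that did not overlap, in either direction, and 5543 of 16927 genes were higher with exoCDN2. The share of all genes above all 4 tumors was not computed.

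The short members and Slfn3 passed in none of the 3 groups. Slfn2 was at 644 and 800 normalized counts with PBS, 2074 and 3896 with CDN2 (20 µg), 2034 and 2267 with CDN2 (100 µg) and 3238 and 3035 with exoCDN2, and its log2 fold changes of 2.03, 1.56 and 2.08 had adjusted p values of 0.0565, 0.16 and 0.058. Slfn1 had log2 fold changes of 1.27, 0.68 and 1.26, and Slfn3 of 0.64, 0.99 and 1.41. These values are of the same sign as those of the members that were called. The number of calls at this dose depended on the fit. With only the groups compared in the model, 5 members passed with CDN2 (20 µg), 5 with CDN2 (100 µg) and 7 with exoCDN2. Calls over all genes rose in such fits too, from 413 to 1352 with CDN2 (100 µg) and from 444 to 1300 with exoCDN2.

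Of 30 genes of a type I interferon response list that holds no Schlafen member, 28 rose with CDN2 (20 µg), 26 with CDN2 (100 µg) and 27 with exoCDN2. The extremes of the list were Rsad2, the antiviral viperin, at 5.61 on the log2 scale and Bst2, tetherin, at 0.48 with CDN2 (20 µg), and Ifit1, a binder of viral RNA, at 5.38 and Bst2 at -0.23 with exoCDN2. Slfn8 and Slfn4 lay within this range and Slfn1 and Slfn3 near its lower end. The median log2 fold change over the list was 2.65 with CDN2 (20 µg) and 2.86 with exoCDN2, and over the 7 Schlafen members it was 1.57 and 2.46, while over all genes tested it was 0.00 and -0.02. Neutrophil markers summed to 267 to 277 normalized counts with PBS, 670 to 1532 with CDN2 (20 µg), 741 to 878 with CDN2 (100 µg) and 1898 to 3120 with exoCDN2, and their part in the Slfn4 values was not tested. With CDN2 (100 µg) 4 of 9 T cell markers fell, Cd3d, Cd3e, Cd5 and Cd8a, with a median over the list of -3.20 on the log2 scale, as did 1 of 6 NK cell markers, Prf1, and 1 of 10 monocyte and macrophage markers, Ccr2. T cell markers summed to 571 to 718 normalized counts with PBS and 399 to 399.8 with CDN2 (100 µg), and their part in the Schlafen values was not tested.

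**Figure D2:**
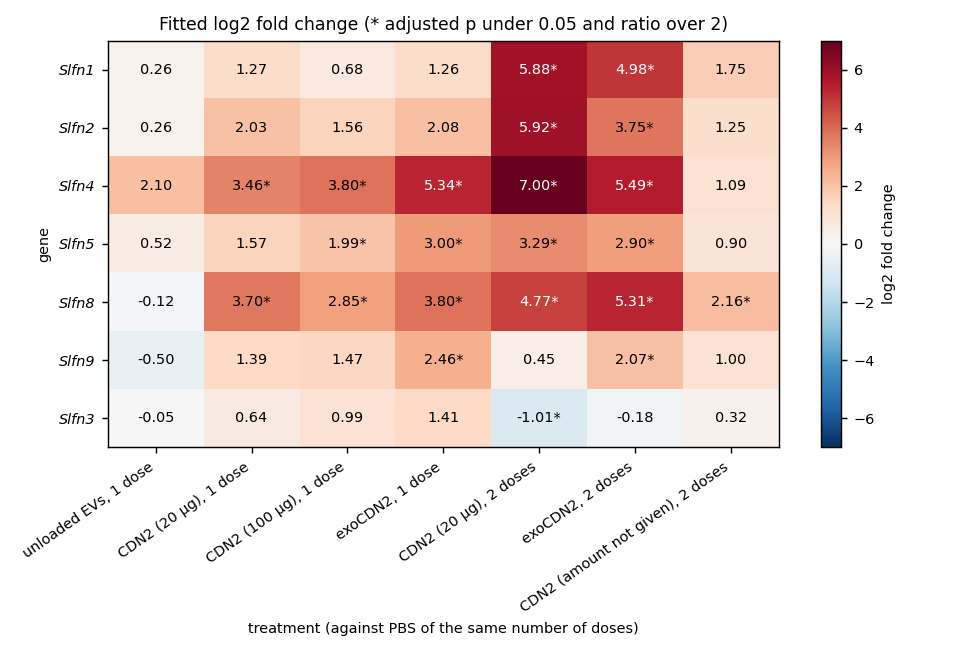
Fitted log2 fold change of each member (rows) in each treatment (columns) against PBS tumors given the same number of doses, with a star where the adjusted p was under 0.05 and the ratio over 2. Slfn8 carries a star in every agonist column, Slfn1 and Slfn2 in the 2-dose columns of known content, and Slfn3 has a negative value with CDN2 (20 µg) after 2 doses, -1.01.

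Loaded were also compared with unloaded vesicles, so that the carrier was the same. ExoCDN2 changed 5 of 7 members against unloaded EVs, all higher, where 2.95% of all genes were called, 2.52% higher. They were Slfn8 at 3.92 on the log2 scale (SE 0.36, edgeR adjusted p = 6.55e-05), Slfn4 at 3.24 (adjusted p = 0.0429), Slfn9 at 2.96 (adjusted p = 0.0124), Slfn5 at 2.47 (adjusted p = 0.0105) and Slfn3 at 1.46 (adjusted p = 0.049). Slfn3, which is expressed in gut epithelium and T cells, was at 1346 and 1253 normalized counts with exoCDN2 and 519 and 408 with unloaded EVs. Leaving out 1 tumor at a time left 1 or 2 of these calls, with Slfn8 among them each time, and the call of Slfn3 was also lost with the replicate number as a block (adjusted p = 0.0702).

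Free and loaded agonist were then set side by side at 1 dose, at 20 µg and 0.1 µg of CDN2. None of the 7 members was called in edgeR between them, where 0.608% of all genes were called, and 2 members, Slfn4 and Slfn5, had an unadjusted p under 0.05. DESeq2 called 1 member, Slfn5 (log2 difference 1.46, adjusted p = 0.0221). Slfn5 was higher in both exoCDN2 tumors than in both tumors given free CDN2, where 60.8% of all genes had groups that did not overlap, with a log2 difference of 1.43 (95% interval 0.46 to 2.40, adjusted p = 0.113). Slfn4 differed in the same direction by 1.88 (0.27 to 3.49, adjusted p = 0.191) and Slfn9 by 1.07 (-0.09 to 2.23). For Slfn8 the difference was 0.10 (-0.59 to 0.79), for Slfn2 0.05 (-1.06 to 1.16) and for Slfn1 0.00 (-1.03 to 1.03), so that differences of up to about 1 log2 unit either way cannot be told from 0 for these members. Between 100 µg and 20 µg of free CDN2, 0 of 7 members were called in edgeR and in DESeq2, against 0.455% of all genes. The largest difference was that of Slfn8, which was lower in both tumors given 100 µg, where 59.3% of all genes had groups that did not overlap (log2 difference -0.85, 95% interval -1.54 to -0.15, adjusted p = 0.211, unadjusted p = 0.0209, the only member under 0.05).

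Before the second dose is compared with PBS, the PBS tumors of both dose numbers are set side by side, since they are different tumors. Slfn8 was lower after 2 doses of PBS, at 80.7 and 30.3 normalized counts against 305 and 327 after 1 dose (log2 difference -2.50, SE 0.36, edgeR adjusted p = 0.00381). It was 1 of 7 members called, where 1.1% of all genes were called, 1.05% lower. The call was lost with only these 4 tumors in the model (adjusted p = 0.0746). The other members had log2 differences from -1.61 for Slfn1 to -0.06 for Slfn3, none of which passed. The second PBS tumor of 2 doses was the lower of its pair for every member except Slfn2, as for Slfn9 at 1145 and 211. Of the interferon list 25 of 30 genes were lower, from Zbp1, a sensor of Z-form nucleic acids, at -3.87 to Ifit2 at -0.83. Fold changes against PBS after 2 doses therefore start from lower values than those after 1 dose.

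After 2 doses the short members stood out beside Slfn4 and Slfn8. CDN2 (20 µg) changed 6 of 7 members, 5 higher and 1 lower, in a comparison where 30.6% of all genes were called, 20% higher and 10.6% lower. ExoCDN2 changed 6 of 7, all higher, where 11.3% of all genes were called and 8.87% were higher. Both comparisons share the same PBS tumors. The calls of Slfn1, Slfn2, Slfn4, Slfn5 and Slfn8 were lost under none of the 11 alternatives in either comparison.

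Slfn1, a short member that slows lymphocyte growth, stood at 50.7 and 35.8 normalized counts with PBS, 3731 and 1546 with CDN2 (20 µg) and 1731 and 975 with exoCDN2. Each agonist-treated tumor was far above both PBS tumors. The log2 fold changes were 5.88 (SE 0.58, edgeR adjusted p = 3.35e-05) with CDN2 (20 µg) and 4.98 (SE 0.56, adjusted p = 0.000122) with exoCDN2. Slfn2, the short member needed for T cell quiescence, stood at 332 and 348 with PBS, 35332 and 7394 with CDN2 (20 µg) and 5642 and 3373 with exoCDN2. The tumors given CDN2 (20 µg) differed 4.78-fold from each other, and the lower of them was above both exoCDN2 tumors. The log2 fold changes of Slfn2 were 5.92 (SE 0.63, edgeR adjusted p = 5.02e-05) and 3.75 (SE 0.57, adjusted p = 0.000963).

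Slfn4 stood at 68.7 and 16.5 normalized counts with PBS, 8862 and 2586 with CDN2 (20 µg) and 2516 and 1310 with exoCDN2. Its log2 fold changes of 7.003 (SE 0.96, edgeR adjusted p = 0.000191) and 5.49 (SE 0.90, adjusted p = 0.00157) were the largest of the family in both comparisons. Slfn8 stood at 80.7 and 30.3 with PBS, 1667 and 1450 with CDN2 (20 µg) and 2568 and 1814 with exoCDN2. Here the exoCDN2 tumors were the higher, unlike for Slfn4, and both log2 fold changes passed, at 4.77 (SE 0.39, edgeR adjusted p = 9.58e-06) and 5.31 (SE 0.39, adjusted p = 6.6e-06). Slfn5 stood at 540 and 169 with PBS, 4941 and 2215 with CDN2 (20 µg) and 3151 and 2089 with exoCDN2, with log2 fold changes of 3.29 (SE 0.48, adjusted p = 0.000293) and 2.90 (SE 0.48, adjusted p = 0.00151).

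Slfn3 was called higher with neither agent, and Slfn9 with exoCDN2 only. Slfn9 stood at 1145 and 211 normalized counts with PBS, 667 and 1201 with CDN2 (20 µg) and 2250 and 3378 with exoCDN2. It overlapped PBS with CDN2 (20 µg), where the log2 fold change was 0.45 (adjusted p = 0.508), and rose with exoCDN2 by 2.07 (SE 0.55, edgeR adjusted p = 0.0226). That call was lost without either exoCDN2 tumor (adjusted p = 0.0589 and 0.0958), with only the groups compared in the model (0.106) and with the PBS tumors of both dose numbers pooled (0.145). Slfn3 stood at 669 and 248.9 with PBS, 193 and 268 with CDN2 (20 µg) and 313 and 489 with exoCDN2, so that its groups overlapped in both comparisons. It was called lower with CDN2 (20 µg), by 1.01 on the log2 scale (SE 0.37, edgeR adjusted p = 0.0404), but 6 of 11 alternatives ended that call, and without the first PBS tumor the log2 fold change was -0.15. With exoCDN2 its log2 fold change was -0.18 (95% interval -0.96 to 0.61).

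Without the CDN2 (20 µg) tumor that stood apart, 5 members were called against PBS. Slfn1 was then at 5.14 on the log2 scale, Slfn2 at 4.43, Slfn4 at 5.89, Slfn5 at 2.63 and Slfn8 at 4.68, and the call of Slfn3 was lost at -0.79 (adjusted p = 0.181). Without the second PBS tumor of 2 doses 6 members were called with each agent. Slfn9 then had log2 fold changes of -0.33 with CDN2 (20 µg) and 1.32 with exoCDN2 (adjusted p = 0.048). Without the second CDN2 (20 µg) tumor Slfn9 was at -0.14 (adjusted p = 0.869), and without the first PBS tumor at 2.11 (adjusted p = 0.00251), so its direction with CDN2 (20 µg) rested on which tumors were used.

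Markers of several immune cell types differed between the same groups, given here as summed normalized counts. The 8 neutrophil markers, none of them at 0 in these groups, summed to 99.2 and 154 at their lowest and highest with PBS, 9585 and 43404 with CDN2 (20 µg) and 1075 and 3131 with exoCDN2, and 8 of 8 rose with CDN2 (20 µg) and 6 of 8 with exoCDN2. The 10 monocyte and macrophage markers summed to 9244 to 11479 with PBS, 26552 to 59239 with CDN2 (20 µg) and 24853 to 36622 with exoCDN2. The 9 T cell markers summed to 271 to 276 with PBS, 970 to 1110 with CDN2 (20 µg) and 1925 to 2419 with exoCDN2. The 6 NK cell markers summed to 80.8 to 119, 1993 to 4496 and 2803 to 5437 in the same order. Skeletal muscle markers summed to 77643 and 141143 in the CDN2 (20 µg) tumors of 2 doses and to at most 20936 in any other tumor. Of the interferon list 30 of 30 genes rose with each agent, and its median log2 fold change was 5.21 with CDN2 (20 µg), from Samd9l at 2.12 to Isg15, a ubiquitin-like modifier, at 7.62, and 4.76 with exoCDN2, from Irf9 at 2.26 to Oas3, a sensor of double-stranded RNA, at 7.06. The medians over the Schlafen members were 4.77 and 3.75. The part of these cell types in the Schlafen values was not tested.

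Free and loaded agonist were compared again at 2 doses, where the amounts of CDN2 still differed. Slfn2 was lower with exoCDN2 than with CDN2 (20 µg), by a log2 difference of -2.17 (95% interval -3.33 to -1.02, edgeR adjusted p = 0.00997), and Slfn9 was higher, by 1.62 (0.43 to 2.81, adjusted p = 0.0362). These were 2 of 7 members, where 19.4% of all genes were called, 7.34% higher and 12% lower. Slfn4 was lower in both exoCDN2 tumors by -1.51 (-3.10 to 0.08, adjusted p = 0.119), and Slfn1 differed by -0.90 (-1.89 to 0.10). Slfn3 and Slfn8 were higher in both exoCDN2 tumors, at 0.83 (0.02 to 1.64) and 0.55 (-0.15 to 1.24), and did not pass. Of all genes, 65.3% had groups that did not overlap in this comparison. For Slfn5 the difference was -0.38 (-1.34 to 0.57).

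Neither call between the agents survived without the tumor that stood apart, nor without the second exoCDN2 tumor. Without the tumor that stood apart Slfn2 differed by -0.69, Slfn9 by 1.25 and Slfn5 by 0.26. Without the second exoCDN2 tumor Slfn2 differed by -1.82 and Slfn9 by 1.33. The call of Slfn9 was also lost without the first exoCDN2 tumor, at 1.90. With only the 4 tumors compared in the model 0 members were called, with edgeR adjusted p values of 0.157 for Slfn2 and 0.137 for Slfn9. DESeq2 on all 16 tumors called the same number of members as edgeR. Of the neutrophil markers 7 of 8 were lower with exoCDN2, and their part in the Slfn2 and Slfn4 values was not tested. Of the interferon list 2 genes were higher with exoCDN2 and 7 lower, with Isg15 the lowest at -2.005.

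The second dose was then compared with the first within each agent. With CDN2 (20 µg) 6 of 7 members changed, 3 in each direction, where 20.8% of all genes were called, 14.4% higher and 6.36% lower. Slfn1 rose by 3.01 on the log2 scale (SE 0.49, edgeR adjusted p = 0.00142), from 180 and 460 normalized counts to 3731 and 1546, and Slfn2 by 2.79 (SE 0.54, adjusted p = 0.00301), from 2074 and 3896 to 35332 and 7394. Slfn4 rose by 2.61 (SE 0.76, adjusted p = 0.02). In the other direction Slfn9 fell by 2.32 (SE 0.56, adjusted p = 0.00819), from 4365 and 4921 to 667 and 1201. Slfn3 fell by 1.71 (SE 0.38, adjusted p = 0.00543) and Slfn8 by 1.44 (SE 0.32, adjusted p = 0.00599). For Slfn5 the difference was 0.54 (95% interval -0.42 to 1.505). The short members and Slfn4 were thus higher, and Slfn3, Slfn8 and Slfn9 lower, in both tumors of 2 doses than in both tumors of 1 dose, where 61.7% of all genes had groups that did not overlap.

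Without the tumor that stood apart, 4 of these calls remained: Slfn1 at 2.26, Slfn2 at 1.30, Slfn3 at -1.497 and Slfn8 at -1.52 on the log2 scale. Slfn4 was then at 1.49 (adjusted p = 0.163), Slfn9 at -1.96 (adjusted p = 0.0551) and Slfn5 at -0.12. With only these 4 tumors in the model the calls of Slfn8 and Slfn9 were left. Of the interferon list 6 genes were higher after the second dose of CDN2 (20 µg) and 9 lower, from Oas3 at 2.39 to Ifit1 at -2.73. All 8 neutrophil markers were higher.

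With exoCDN2 the second dose changed 2 of 7 members, where 7.44% of all genes were called, 5.1% higher and 2.34% lower. Slfn1 rose by 2.11 on the log2 scale (SE 0.48, edgeR adjusted p = 0.0155), from 338 and 311 normalized counts to 1731 and 975. Slfn3 fell by 1.65 (SE 0.37, adjusted p = 0.0143), from 1346 and 1253 to 313 and 489. The long members were lower in both tumors of 2 doses than in both tumors of 1 dose, where 71% of all genes had groups that did not overlap, and did not pass, with Slfn9 at -1.77 (adjusted p = 0.0532), Slfn5 at -1.27 (adjusted p = 0.0839) and Slfn8 at -0.99 (adjusted p = 0.0629). Slfn2 differed by 0.57 (95% interval -0.54 to 1.68) and Slfn4 by -0.78 (-2.35 to 0.78). DESeq2 called 5 members, adding the 3 long members, and both edgeR calls were lost without either tumor of 1 dose or without the first tumor of 2 doses. None of the 8 neutrophil markers was called between these groups in edgeR, while 7 of 9 T cell markers and 4 of 6 NK cell markers rose. In both agents Slfn1 rose and Slfn3 fell from the first to the second dose.

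**Figure D3:**
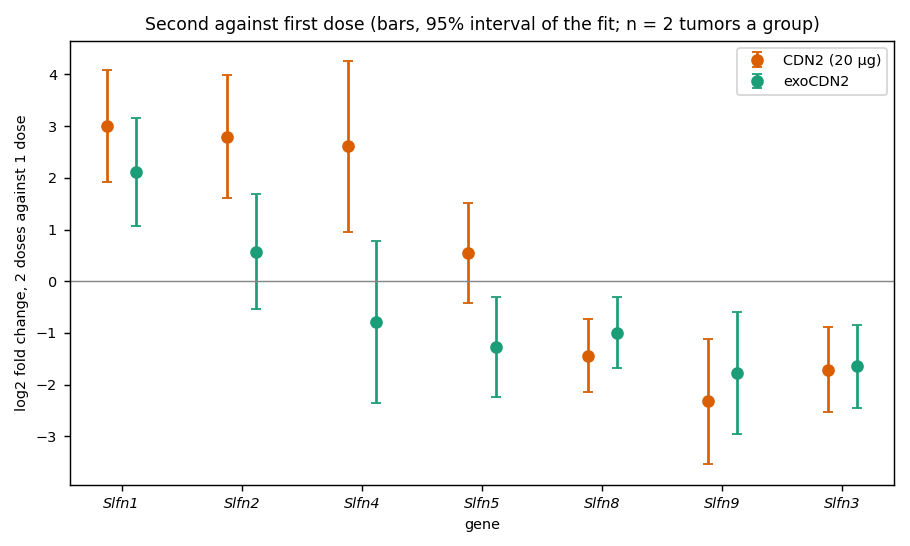
Fitted log2 difference between 2 doses and 1 dose for each member (horizontal axis lists the members, vertical axis is log2) with its 95% interval, for CDN2 (20 µg) and exoCDN2. Slfn1 lies above 0 in both agents, at 3.01 and 2.11, and Slfn3 and Slfn9 lie below it in both.

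Whether the change against PBS differed between the dose numbers was tested by an interaction term. For CDN2 (20 µg) the change against PBS was larger after the second dose for Slfn1, by 4.61 on the log2 scale (SE 0.71, edgeR adjusted p = 0.00275), for Slfn2, by 3.89 (SE 0.75, adjusted p = 0.00627), and for Slfn4, by 3.54 (SE 1.14, adjusted p = 0.0443). For Slfn3 it was lower, by -1.65 (SE 0.52, adjusted p = 0.0408). These were 4 of 7 members, where 16.8% of all genes were called, 11.7% higher and 5.16% lower. Without the tumor that stood apart Slfn1 (3.86) and Slfn2 (2.38) were still called, while Slfn3 (-1.45, adjusted p = 0.0974) and Slfn4 (2.41, adjusted p = 0.149) were not. For exoCDN2 only Slfn1 passed in edgeR, at 3.72 (SE 0.70, adjusted p = 0.00809), where 6.82% of all genes were called, 5.12% higher. The lower PBS values after 2 doses enter both terms. Slfn1 was the member whose change against PBS was larger after the second dose of either agent, and these calls were lost under 0 of 14 alternatives.

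A comparison of the agents' own changes from the first to the second dose, which uses no PBS tumor, was added after the data had been seen. Of the 7 members 0 were called in edgeR, where 8.31% of all genes were called. Slfn4 differed by -3.39 (unadjusted p = 0.00679, edgeR adjusted p = 0.0564), Slfn2 by -2.22 (unadjusted p = 0.0101, adjusted p = 0.0695) and Slfn5 by -1.81 (unadjusted p = 0.0134, adjusted p = 0.0796). In each the signed change was the lower one in exoCDN2 tumors, and for Slfn5 it was -1.27 there against 0.54 with CDN2 (20 µg). DESeq2 called these 3 members. For Slfn1 the difference was -0.90 (95% interval -2.32 to 0.53).

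The makeup of the family, as each member's share of the summed CPM per kb, moved with the number of doses. After 1 dose of PBS Slfn2 held 31.4% and 36.0% of the sum, Slfn9 25.3% and 22.3% and Slfn3 20.0% and 17.8%. After 1 dose of exoCDN2 Slfn2 held 24.9% and 25.2%, Slfn9 21.5% and 24.5%, and Slfn8 13.1% and 16.9% against 6.17% and 6.09% with PBS. After 2 doses of CDN2 (20 µg) Slfn2 held 78.8% and 63.5%, and Slfn3 and Slfn9 held at most 2.97% each. With 2 doses of exoCDN2 Slfn2 held 50.8% and 44.9%. In the share of Slfn2 these tumors lay between PBS tumors of 1 dose and CDN2 (20 µg) tumors of 2 doses. The PBS tumors of 2 doses differed from each other, with Slfn2 at 22.4% and 48.5%, and the shares are given as a description, with no test.

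**Figure D4:**
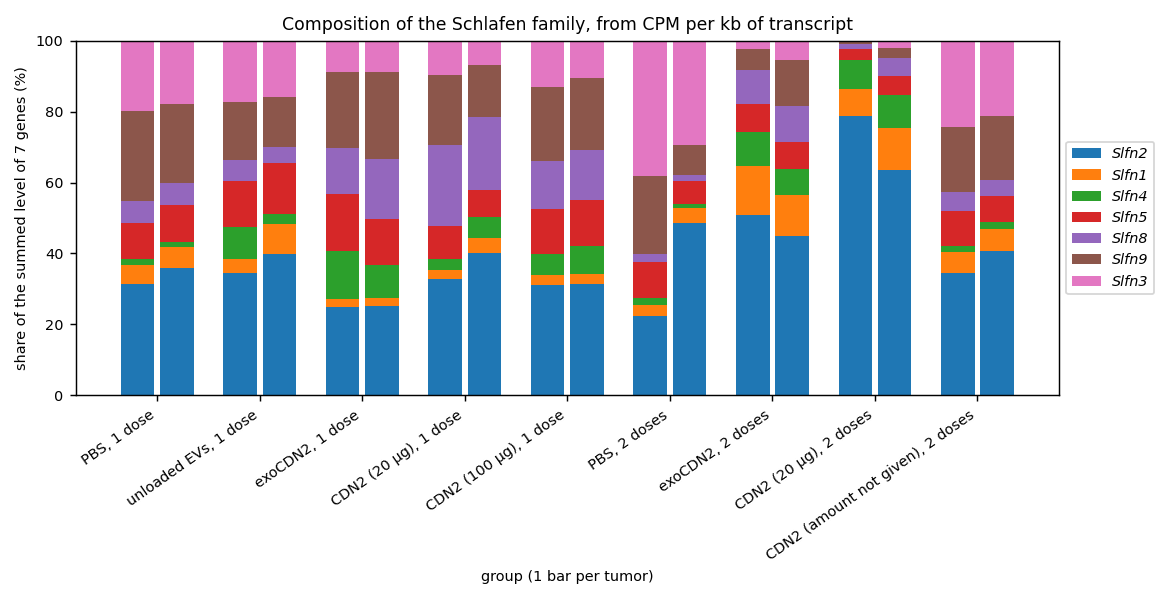
Share of each member (percent of the summed CPM per kb of coding transcript) in each of the 18 tumors, stacked to 100. Slfn2 fills 78.8% and 63.5% of the bars of CDN2 (20 µg) after 2 doses, where Slfn3 and Slfn9 are thin.

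Over the 18 tumors the members fell into no single pattern, described here by Pearson's r of log2 normalized counts. The points share the treatments, so that the correlations carry no p. Slfn1 and Slfn2 were the most alike (r = 0.946), and Slfn4 and Slfn5 (0.946) and Slfn5 and Slfn8 (0.935) were nearly as close. Slfn3 and Slfn9 went together (0.838), while Slfn3 and Slfn1 had r = -0.316. Most neighbours on the chromosome were alike, but the distance between them did not order their r. Slfn4 and Slfn3 lie 1113 bases apart and had r = 0.136, and Slfn9 and Slfn8 lie 10327 bases apart and had r = 0.815. Apart from Slfn4 and Slfn3, neighbouring members had r from 0.745 (Slfn5 and Slfn9) to 0.946 (Slfn2 and Slfn1).

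The 3 tested genes most like each member over the same 18 tumors were taken from 17110. For Slfn1 they were Ms4a4c (r = 0.987), the complement factor gene Cfb (0.986) and H2-Q6 (0.981). For Slfn2 they were Slc15a3, a lysosomal peptide transporter (0.981), Hcar2, a receptor for hydroxybutyrate and niacin (0.979), and Gadd45b (0.979). Slfn4 was most like Ifi209 (0.976), Ifi203-ps (0.973) and Osmr, the oncostatin M receptor (0.963). The long members had Gm8995 (0.965), Lgals8 (0.952) and Cd86 (0.951) for Slfn5, Parp14 (0.98), Gbp5 (0.979) and Dtx3l (0.979) for Slfn8, and Ikzf5 (0.944), Mllt3 (0.937) and Resf1 (0.935) for Slfn9. Slfn3 was most like Rdx, which links actin to the membrane (0.954), Fam208b (0.948) and Aste1 (0.943). Parp14 is also a gene of the interferon list.

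Other Schlafen loci of the annotation were looked up beside the 7 members. The pseudogene Slfn10-ps, which lies between Slfn8 and Slfn2, stood at 38.4 and 33.1 normalized counts after 1 dose of PBS, 98.2 and 105 after 1 dose of exoCDN2, 21.5 and 9.2 after 2 doses of PBS, 563 and 241 after 2 doses of CDN2 (20 µg) and 248.6 and 183 after 2 doses of exoCDN2. Its log2 fold changes after 2 doses were 4.64 (edgeR adjusted p = 3.38e-05) with CDN2 (20 µg) and 3.82 (adjusted p = 0.000168) with exoCDN2. Slfn14, Slfnl1 and Slfn5os had at most 3 counts in each of the 18 tumors and were not tested. Slfn5os is antisense to Slfn5 and overlaps it, and whether the libraries kept the strand is not given in the sources used here, so reads from the stretch where they overlap cannot be told apart by strand. Of the 150-base windows of the members' transcripts, 1.46% of those of Slfn9 also occurred in Slfn10-ps, and 0% of those of the other 6 members occurred in another Schlafen gene. Fractional expected counts of a gene, which can mark reads divided between genes, were seen in 17 of 18 tumors for Slfn3 and for Slfn9. They were seen in 0 for Slfn1 and Slfn2. The windows were compared among Schlafen genes only, so where the fractions of Slfn3 come from was not tested.

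The remaining group received 2 doses of free CDN2 in an amount the labels do not give, and was compared in a fit of all 18 tumors and 17110 genes. Its tumors stood at 265 and 237 normalized counts for Slfn8, 712 and 921.5 for Slfn2, 80.7 and 104 for Slfn4 and 135 and 159 for Slfn1. These values were nearer to those of PBS tumors of 1 dose than to any agonist group. Against PBS tumors of 2 doses Slfn8 was higher by 2.16 on the log2 scale (SE 0.35, edgeR adjusted p = 0.0058), 1 of 7 members where 0.959% of all genes were called (0.918% higher), and the log2 fold changes of the others ran from 0.32 for Slfn3 to 1.75 for Slfn1 and did not pass. With the PBS tumors of both dose numbers pooled the value for Slfn8 was 0.42 (adjusted p = 0.882), and without the second PBS tumor of 2 doses it was 1.63 (adjusted p = 0.065). Compared with this group, 2 doses of exoCDN2 raised 5 of 7 members, where 6.38% of all genes were called and 4.97% were higher: Slfn4 by 4.41, Slfn1 by 3.23, Slfn8 by 3.16, Slfn2 by 2.50 and Slfn5 by 2.004 on the log2 scale, with edgeR adjusted p values from 0.000268 to 0.0133. Without 1 tumor at a time 2 to 5 of these calls were left, with Slfn1 and Slfn8 among them each time. Since the amounts are not known to match, no dose order was drawn from these tumors.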

How the data were processed

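RNA of 18 whole B16F10 tumors was sequenced, 2 tumors in each of 9 groups given by the sample titles. The authors aligned reads to GRCm38 with OSA in OmicSoft ArraySuite and deposited RSEM expected counts per gene of Ensembl R88, without normalization, and the labels name RSEM and mm10. In each tumor 8.75% to 12.7% of the deposited expected counts were not whole, so they were rounded to whole counts. GENCODE M21 gave a symbol to 50376 of 50600 genes, and promoter windows came from RefSeq (GRCm38.p6).

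The rounded counts were tested with edgeR 4.0.16 (R 4.3.3) by a quasi-likelihood fit with TMM factors, genes kept by filterByExpr (minimum count 10, minimum total 15) and 1 mean per group, in 16 tumors of 8 groups (16927 genes), and in all 18 tumors (17110 genes) for the group of unknown amount. In each of 18 comparisons p-values were adjusted by Benjamini-Hochberg across all genes tested, with no adjustment across comparisons. A gene was called at a ratio over 2 with an adjusted p under 0.05. Intervals are at 95%. Normalized counts used DESeq2 1.42.0 size factors, with a pseudocount of 1 on the log2 scale.

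The alternatives were DESeq2, RLE factors, no filter on low counts, only the groups compared, all 18 tumors, pooled PBS tumors, no ratio limit, the replicate number as a block and each tumor left out in turn. The text names each member in every comparison, the other Schlafen loci, the highest and lowest gene of a 30-gene interferon list and the 3 genes most like each member. The highest gene of that list in 1 comparison is not reported here. The Schlafen members, the interferon list and the marker lists were chosen with earlier results of these data known. On counts simulated for CDN2 (20 µg) against PBS after 1 dose, 183 of 200 genes changed 4-fold were recovered among 16415 tested, with 8 false calls. Every simulated gene had the same spread, a biological coefficient of variation of 0.22, whereas in the tumors the spread differed between genes. The recovery therefore does not give the share of real 4-fold changes that would be called.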

Additional observations from a re-analysis of the deposited data

Results flagged for a closer look

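The change against PBS differed between the first and the second dose, by an interaction term, for 4 members with CDN2 (20 µg) and for 1 with exoCDN2. With CDN2 (20 µg) the log2 difference between the changes was 4.61 for Slfn1, 3.89 for Slfn2, -1.65 for Slfn3 and 3.54 for Slfn4. Of 14 alternatives, the call was lost in 8 for Slfn3 and in 7 for Slfn4, the replicate block and the fit without the tumor that stood apart among them, and in 0 for Slfn1 and Slfn2. With exoCDN2 it was 3.72 for Slfn1. PBS tumors of 2 doses had lower fitted values than those of 1 dose for all 7 members, and these values enter each term. With 2 tumors a group, no group was large enough for a test of single outlying samples.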

How the results depend on the processing

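The comparisons of 2 doses with PBS held best: 6 members were called with CDN2 (20 µg) and 6 with exoCDN2, and 5 to 6 in each without any 1 tumor. Of the members' log2 fold changes over all comparisons and alternatives, 1150 kept their direction and side of the threshold, 101 passed newly, 88 no longer passed and 40 changed sign. Counts of members called elsewhere moved with the fit. Without the filter on low counts 1 member was called with unloaded EVs, 6 with 1 dose of CDN2 (20 µg), 5 with CDN2 (100 µg), 7 with exoCDN2, 3 between exoCDN2 and CDN2 (20 µg) after 1 dose, 4 between 2 and 1 doses of exoCDN2, 5 between the PBS groups, 4 in the exoCDN2 interaction, 5 with the unknown amount against PBS and 3 in the added comparison. That fit took each gene's spread from genes of like abundance alone (for Slfn4 0.668, against 10.6 from its own tumors). With only the groups compared, these counts were 5, 5, 7 and 2 for CDN2 (20 µg), CDN2 (100 µg) and exoCDN2 against PBS and for exoCDN2 against CDN2 (20 µg) after 1 dose, 0 for the latter after 2 doses, 2 for CDN2 (20 µg) and 5 for exoCDN2 between doses, 2 in each interaction and 2 with the unknown amount against PBS. DESeq2 called 4 members with 1 dose of CDN2 (20 µg), 1 between exoCDN2 and CDN2 (20 µg) after 1 dose, 5 between 2 and 1 doses of exoCDN2, 2 between the PBS groups, 3 in the exoCDN2 interaction, 2 with the unknown amount against PBS and 3 in the added comparison. With the PBS tumors pooled 6 members were called with 1 dose of CDN2 (20 µg), 5 with CDN2 (100 µg) and 0 with the unknown amount. With only the groups compared, calls over all genes against PBS after 1 dose rose as well, to 1352 with CDN2 (100 µg) and 1300 with exoCDN2. Except for the no-filter fit, the cause was not tested.

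Leaving out 1 tumor at a time gave 1 to 3 members called with 1 dose of CDN2 (20 µg), 1 with CDN2 (100 µg), 1 to 3 with exoCDN2 and 1 to 2 against unloaded EVs. It gave 0 to 4 between exoCDN2 and CDN2 (20 µg) after 2 doses, 4 to 6 between doses of CDN2 (20 µg), 0 to 2 between doses of exoCDN2, 1 to 3 between the PBS groups, 2 to 5 in the CDN2 (20 µg) interaction, 1 to 2 in the exoCDN2 interaction, 0 to 3 with the unknown amount against PBS, 2 to 5 between exoCDN2 and the unknown amount, and 0 to 3 in the added comparison.

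Changes of sign were of members that did not pass in the reported comparison. Slfn9 passed without the first PBS tumor of 2 doses against PBS with CDN2 (20 µg) (2.11) and without the second in the interaction (-1.72). With PBS tumors pooled, log2 fold changes were 0.64 for Slfn8 and 0.034 for Slfn9 with unloaded EVs and -0.40 for Slfn9 with 2 doses of CDN2 (20 µg). Slfn1 between exoCDN2 and CDN2 (20 µg) after 1 dose was 0.021 in DESeq2, 0.023 with RLE factors, 0.0046 without the filter and 0.0052 with only the groups compared. Slfn3 in the added comparison was -0.0029 in DESeq2 and -0.0073 with RLE factors. Without 1 tumor at a time, the range with unloaded EVs was -0.20 to 0.61 for Slfn1, -0.23 to 0.11 for Slfn3 and -0.45 to 0.14 for Slfn8. Between CDN2 (100 µg) and CDN2 (20 µg) it was -1.12 to 0.22 for Slfn1, -0.86 to 0.034 for Slfn2, -0.26 to 1.36 for Slfn4 and -0.0025 to 0.15 for Slfn9. Between exoCDN2 and CDN2 (20 µg) after 1 dose it was -0.50 to 0.81 for Slfn1, -0.31 to 0.56 for Slfn2 and -0.089 to 0.34 for Slfn8, and after 2 doses -0.79 to 0.26 for Slfn5. Against PBS after 2 doses it was -0.72 to 0.71 for Slfn3 with exoCDN2, -0.33 to 2.11 for Slfn9 with CDN2 (20 µg) and -0.22 to 1.21 for Slfn3 with the unknown amount. Between doses it was -0.12 to 0.94 for Slfn5 with CDN2 (20 µg) and -0.94 to 0.48 for Slfn3 with PBS. In the exoCDN2 interaction it was -0.52 to 1.52 for Slfn4, -0.70 to 0.97 for Slfn5 and -1.15 to 1.29 for Slfn9, in that of CDN2 (20 µg) -1.72 to 0.72 for Slfn9, and in the added comparison -0.27 to 0.39 for Slfn3.

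The labels give the same replicate numbers to every group without saying that a number marks a shared animal or day. Deviations of same-numbered tumors from their group means had correlations of -0.177 to 0.308 (mean 0.0164). With the replicate block the CDN2 (20 µg) interaction had 2 members called in place of 4, since Slfn3 (-1.62, adjusted p = 0.0572) and Slfn4 (3.35, adjusted p = 0.0504) did not pass, and Slfn3 was lost against unloaded EVs (1.46, adjusted p = 0.0702) and with 2 doses of CDN2 (20 µg) (-0.98, adjusted p = 0.0586).

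Counts over all genes moved by more than 1.5 times. In the form of the count and its range over all alternatives, they were 77 (0 to 800) for CDN2 (100 µg) against CDN2 (20 µg), 413 (86 to 1352) for 1 dose of CDN2 (100 µg), 532 (167 to 1076) for 1 dose of CDN2 (20 µg), 444 (146 to 1300) for 1 dose of exoCDN2, 0 (0 to 227) for unloaded EVs and 499 (223 to 1101) for exoCDN2 against unloaded EVs. They were 103 (0 to 707) for exoCDN2 against CDN2 (20 µg) after 1 dose, 3279 (30 to 6337) for the same after 2 doses, 5177 (3060 to 8515) for 2 doses of CDN2 (20 µg), 3521 (629 to 6126) for CDN2 (20 µg) between doses, 1260 (175 to 2061) for exoCDN2 between doses and 186 (85 to 766) for PBS between doses. For the remaining comparisons they were 2848 (1179 to 5661) for the CDN2 (20 µg) interaction, 1154 (494 to 2045) for the exoCDN2 interaction, 164 (0 to 713) for the unknown amount against PBS, 1092 (170 to 1846) for exoCDN2 against the unknown amount, 1407 (0 to 4847) for the added comparison and 1920 (902 to 3034) for 2 doses of exoCDN2. The lowest counts included 30 for exoCDN2 against CDN2 (20 µg) after 2 doses and 0 for the added comparison, both with only the groups compared.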

Other observations

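Marker lists of cell types not described beside the Schlafen values are given here against PBS tumors of the same number of doses, as genes that passed in edgeR. Of all genes, 30.6% passed with 2 doses of CDN2 (20 µg), 20% higher and 10.6% lower. With 2 doses of exoCDN2 11.3% passed, and with 1 dose of CDN2 (20 µg) 3.14%. With 2 doses 5 of 5 pan-leukocyte markers rose with CDN2 (20 µg) and 5 of 5 with exoCDN2, from 2.28 for Laptm5 to 4.43 for Cd52 on the log2 scale. Of 7 melanoma markers 4 fell with 2 doses of CDN2 (20 µg), with Tyr, the enzyme that starts melanin synthesis, at -1.81 against -0.34 with exoCDN2 (edgeR adjusted p = 0.582). Of 5 fibroblast markers 3 rose with CDN2 (20 µg), among them Dcn, decorin, at 5.60. With exoCDN2 2 rose, Col1a1 at 1.21 and Col1a2 at 1.17, both collagen chains, and Dcn at 1.97 did not pass (edgeR adjusted p = 0.0855). Of 5 dendritic cell markers tested 2 fell with CDN2 (20 µg) and 1 with exoCDN2. Of 3 B cell markers tested 1 rose with CDN2 (20 µg), Pax5 at 1.36, against 0.78 with exoCDN2 (edgeR adjusted p = 0.293). With 1 dose 4 of 5 endothelial markers fell with CDN2 (20 µg), with Kdr, a receptor for VEGF, at -2.13 against -0.46 with 1 dose of exoCDN2 (edgeR adjusted p = 0.403). Keratinocyte markers summed to 2582 and 4792 normalized counts in the PBS tumors of 1 dose, to 38.7 and 229 with 1 dose of CDN2 (20 µg) and to 7.92 and 65.2 with 1 dose of exoCDN2. With 2 doses they summed to under 20 in both PBS tumors, to 54.8 and 914 with 2 doses of CDN2 (20 µg) and to 2.35 and 3056 with 2 doses of exoCDN2. The tumors of a group lay far apart in these sums, and the lowest edgeR adjusted p of the 4 markers against PBS was 0.0614, for Krt10 with 2 doses of exoCDN2 (log2 fold change 6.78, higher).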
